A study of Mus musculus with 26 samples.

Results

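The genes described here are the 6 nuclear receptors that bind retinoids, Rara, Rarb, Rarg, Rxra, Rxrb and Rxrg, and 2 corepressors of these receptors, Ncor1 and Nrip1. They were chosen by symbol and are 8 of the 48795 genes in the count table. All 8 symbols matched 1 row of the table each. Of the 8, 7 had enough counts to be tested, and Rxrg had no count in any of the 24 RNA libraries.

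The RNA libraries come from C57BL/6 mouse myeloid progenitors transformed by a pair of oncogenes, Hoxa9 and Meis1 (H9M), or by MN1, and grown in serum with IL3, IL6 and SCF. In each model, 4 groups of 3 libraries were made: LSD1 knockout cells (KO) with all-trans retinoic acid (ATRA, 1 µM), KO cells without ATRA, control cells (CTL) with ATRA, and CTL cells without ATRA. LSD1, encoded by Kdm1a, is a histone demethylase. The labels list 4-hydroxytamoxifen for KO cells and not for CTL cells, so the knockout and that drug cannot be told apart. They give the strain CreERT2-;LSD1TM1Schuele for every RNA sample, KO and CTL alike, and no length for the ATRA treatment. The labels also give each library 1 of 2 codes whose meaning they do not state, 1 code for all H9M and the other for all MN1 libraries, so model and whatever the code marks cannot be told apart. Nothing in the labels says that the 3 libraries of a group are separate cultures, so p-values measure only the spread between these libraries. A second assay, ChIP-seq of H3K4me2 (a mark on histone H3 at promoters in use or poised for use), has 1 GFI1-KD and 1 GFI1-WT library of lineage-negative bone marrow cells from C57BL/6 mice.

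Retinoic acid receptors (RARs) pair with retinoid X receptors (RXRs) on DNA elements made of directly repeated half-sites. Without ligand the pair holds corepressors such as NCOR1 at the gene, and binding of ATRA to the RAR releases them and brings in coactivators. NRIP1, also called RIP140, differs from NCOR1 in that it binds receptors carrying ligand. The Rarb promoter holds a well known retinoic acid response element, and ATRA is used in the clinic to push leukaemic myeloid cells of the promyelocytic type to mature.

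The Rarb promoter is shown because Rarb showed a large ATRA response in H9M, described below, and the Nrip1 promoter because Nrip1 responded beside it. Both sequences are the 250 bases before a RefSeq start in GRCm38.p6, on the minus strand, read 5′ to 3′. Capitals mark a DR5 element (a pair of half-sites with 5 bases between them) in Rarb and single half-sites, on either strand, in Nrip1.
Rarb chr14:16575477-16575726: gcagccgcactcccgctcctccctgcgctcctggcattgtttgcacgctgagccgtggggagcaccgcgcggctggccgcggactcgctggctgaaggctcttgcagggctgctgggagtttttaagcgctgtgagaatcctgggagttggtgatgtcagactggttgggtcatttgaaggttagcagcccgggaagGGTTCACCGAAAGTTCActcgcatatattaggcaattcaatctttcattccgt
Nrip1 chr16:76373828-76374077: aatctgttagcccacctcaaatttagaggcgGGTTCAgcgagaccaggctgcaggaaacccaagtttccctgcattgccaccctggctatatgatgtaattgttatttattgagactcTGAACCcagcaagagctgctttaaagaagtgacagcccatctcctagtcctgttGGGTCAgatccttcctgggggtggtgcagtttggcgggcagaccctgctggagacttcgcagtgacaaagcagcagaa
The half-site searched was AGGTCA, or its variants AGTTCA or GGGTCA or GGTTCA, on both strands, as direct repeats with 5 (DR5), 2 (DR2) or 1 (DR1) bases between them, in the window of 250 bases before to 50 bases after each start. Among the 17 windows of the 8 genes, the Rarb window was the sole one with any of these, a DR5 reading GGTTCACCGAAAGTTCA at bases -53 to -37 from the start. The 5′ ends of the RefSeq genes Rara (98927800), Rarb (17082331) and Rxra (27676445) lie outside these windows and were not searched. A DR5 was found in 0.0974% of all 32851 windows, a DR2 in 0.268% and a DR1 in 0.222%. The Nrip1 window shown holds 3 single half-sites, and 1.84% of all windows hold 3 or more in the same 250 bases. The second Nrip1 start, at 76373049, holds 0 half-sites in its 250 bases. At least 1 half-site was found in 38.6% of windows. A match is a match of letters and not a test of binding.

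Library totals were 22402558 to 32674685 counts. Levels are in CPM, counts scaled to a library total of 1000000. The folds and p-values below come from edgeR's quasi-likelihood test on all 24 libraries and 14663 genes. The p-values were adjusted by Benjamini-Hochberg over all genes in a comparison, with 0.05 as the threshold for a call. For a log2 change, ± is an approximate standard error (SE), the size of the change divided by the square root of its F statistic. It is too small for large changes against groups with few counts, as for Rarb, Nrip1 and Rxra below. Kdm1a averaged 11.1 ± 0.654 CPM in H9M KO cells with ATRA and 0.962 ± 0.0313 CPM in H9M KO cells, against 148 ± 2.40 and 139 ± 1.25 CPM in H9M CTL cells with and without ATRA (SD, n = 3 each). In MN1 it averaged 2.14 ± 0.264 CPM in KO cells with ATRA and 1.28 to 1.58 CPM in KO cells without it, and controls were at 187 CPM or more in every library. The H9M KO libraries with ATRA thus keep 7.51% of the control level, against 0.693% in H9M KO libraries without it, and with that share of control RNA taken out, 26 of 28 values of the tested genes kept their direction and call, and the call of Ncor1 with ATRA in KO cells was lost (adjusted p = 0.0713). Markers of myeloid progenitors summed to 3775 CPM or more in every library, and T cell markers to at most 0.153 CPM. In bulk samples, fewer cells of a type and less RNA per cell cannot be told apart. Where a gene overlaps another, reads of the pair may be mixed, since the sources used here do not give the strand counted. Rara overlaps 2 other RefSeq genes, Rarb 4, Ncor1 1 and Nrip1 1.

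**Figure D1:**
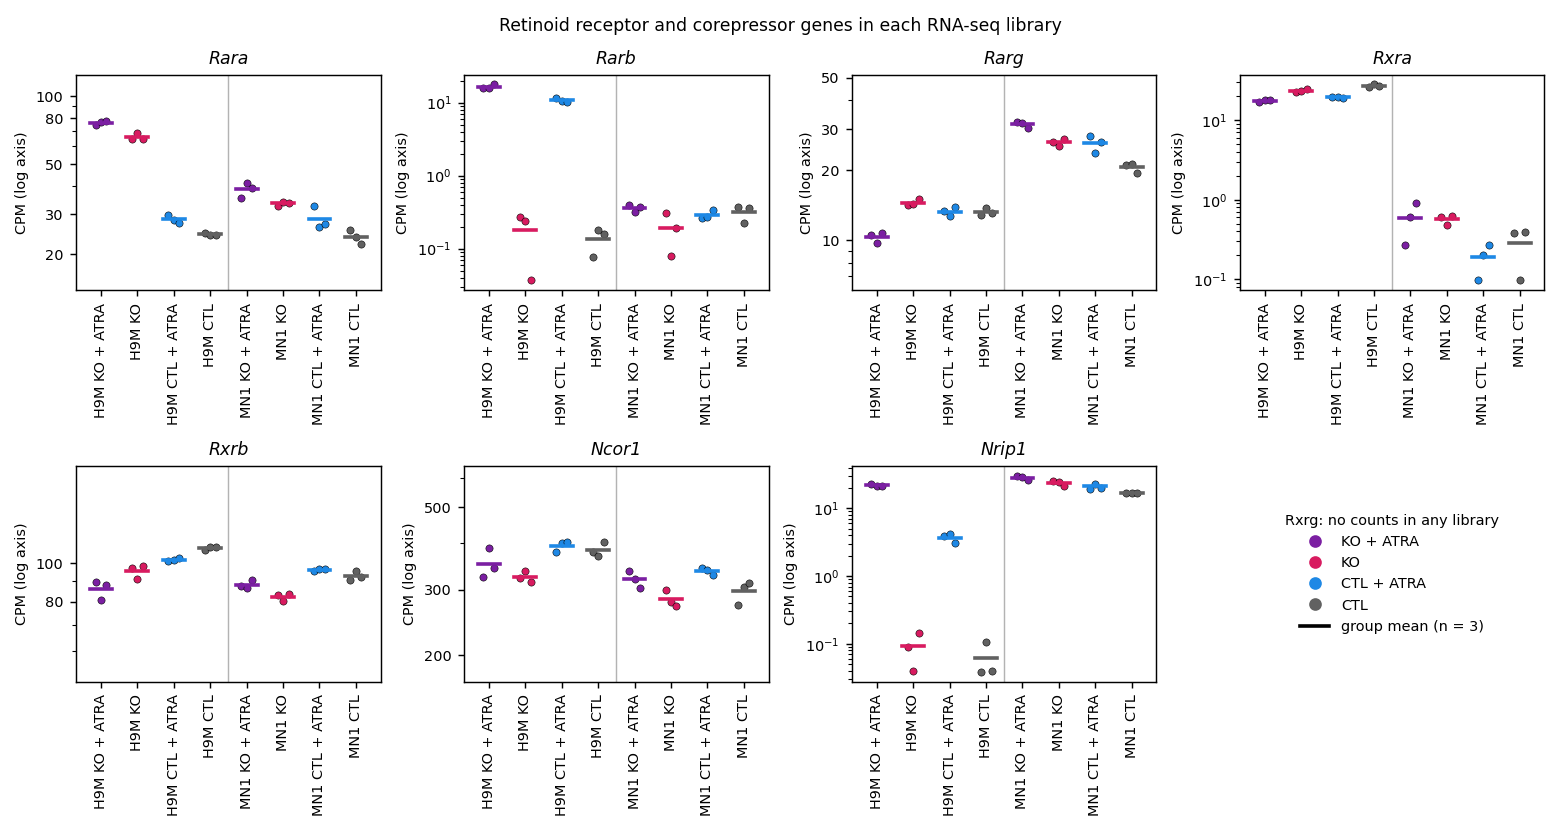
CPM (log axis) of the 7 detected genes in each of the 24 libraries, by model, knockout and ATRA; points are libraries and lines are group means (n = 3). Rara is high in both H9M KO groups, Rarb and Nrip1 in H9M are high only in the ATRA groups, and Rxra is under 1 CPM in every MN1 library.

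Gene positions below are those of RefSeq in GRCm38.p6. Rara (RARα, chromosome 11, 98927800-98974942) is the receptor fused to PML in human acute promyelocytic leukaemia. In H9M it measured 74.2, 76.5 and 77.8 CPM in KO libraries with ATRA and 64.7, 68.5 and 64.6 CPM in KO libraries without it. H9M CTL libraries had 29.9, 28.3 and 27.5 CPM with ATRA and 24.7, 24.4 and 24.3 CPM without. Each of the 6 KO libraries lay above each of the 6 CTL libraries, and no neighbouring pair of groups overlapped. The knockout raised Rara 2.72-fold without ATRA (log2 1.44 ± 0.06 SE, adjusted p = 4.75e-18) and 2.67-fold with it. ATRA raised it by less, 1.18-fold in KO cells (adjusted p = 2.55e-03) and 1.20-fold in CTL cells (adjusted p = 5.68e-03).

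In MN1, Rara measured 35.3, 41.4 and 39.3 CPM in KO libraries with ATRA and 32.8, 34.2 and 33.7 CPM in KO libraries without it. MN1 CTL libraries had 32.6, 26.4 and 27.2 CPM with ATRA and 25.5, 23.9 and 22.2 CPM without. KO and CTL groups did not overlap at the same ATRA state. The knockout raised Rara 1.40-fold without ATRA and 1.32-fold with it. The knockout effect without ATRA was smaller in MN1 than in H9M by 0.95 ± 0.09 on the log2 scale (log2 -0.95, adjusted p = 1.85e-09), while the ATRA effect in CTL cells differed between MN1 and H9M by log2 -0.01 ± 0.10. ATRA raised Rara in MN1 CTL cells (log2 0.25, adjusted p = 0.00813), a call lost when CTL replicate 3 or CTL + ATRA replicate 1 was left out (lowest log2 0.14, adjusted p up to 0.146). The ATRA change in MN1 KO cells was log2 0.16 ± 0.06 (adjusted p = 0.0748), and DESeq2 called it (adjusted p = 0.0493).

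Without ATRA, markers of monocytes and macrophages were higher in KO than in CTL cells, as Rara was. The 6 markers summed to 3101 to 3203 CPM in H9M KO libraries and to 1193 to 1237 CPM in H9M CTL libraries. Ly6c2 made up most of the H9M KO sum, with a group mean of 2757 CPM. All 6 were called higher in KO in each model, where 26.1% of all genes were in H9M and 28.7% in MN1. In MN1 they summed to 406 to 424 CPM in KO libraries and to 57.1 to 63.8 CPM in CTL libraries. With ATRA the H9M sums were lower, at 2291 to 2376 CPM in KO and 629 to 650 CPM in CTL libraries, while Rara was higher. The median log2 change of the 6 markers with ATRA was -0.63 in H9M KO and -0.27 in H9M CTL cells. In MN1 it was -0.36 in KO and 0.14 in CTL cells. Without ATRA, the 7 neutrophil markers summed to 1475 to 1761 CPM in H9M KO and 21.4 to 22.6 CPM in H9M CTL libraries. In MN1 they summed to 430 to 468 CPM in KO and 14.1 to 15.2 CPM in CTL libraries. Mmp8 made up most of the H9M KO sum, with a group mean of 1548 CPM, while Ltf, Camp and Ngp averaged at most 0.620 CPM in any group. Of the 6 tested, 5 were called higher in KO and 0 lower in each model, where 26.1% of all genes were higher in H9M and 28.7% in MN1. The part of either list in the Rara result was not tested.

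Rarb (RARβ, chromosome 14, 16430839-17082331) is itself a textbook target of retinoic acid. In H9M it measured 15.8, 15.7 and 17.8 CPM in KO libraries with ATRA and 0.268, 0.239 and 0.0366 CPM in KO libraries without it. CTL libraries had 11.5, 10.7 and 10.1 CPM with ATRA and 0.0771, 0.177 and 0.157 CPM without. All 6 ATRA libraries lay far above all 6 others, which held 1 to 6 counts each. Summed over libraries, Rarb was 95.02 times as high with ATRA as without in KO cells (95% counting interval 55.4 to 179) and 78.2 times in CTL cells (43.5 to 157). Summed myeloid progenitor markers were 7901 to 8215 CPM with ATRA and 13445 to 13870 CPM without it in H9M CTL cells. Of these 9 markers, 2 were called higher and 3 lower there (12.9% and 12.3% of all genes), with a median log2 change of -0.01. Their part was not tested. The fitted log2 changes of Rarb were 6.55 ± 0.21 in KO cells and 6.28 ± 0.23 in CTL cells, the ± being too small at such low counts without ATRA. With ATRA present, KO cells had 1.53-fold the CTL level (adjusted p = 9.97e-06). Without ATRA the knockout difference was log2 0.34 ± 0.57 (adjusted p = 0.662), at 13 counts in KO and 11 in CTL over 3 libraries.

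In MN1, Rarb measured 0.390, 0.321 and 0.367 CPM in KO libraries with ATRA and 0.305, 0.0801 and 0.193 CPM in KO libraries without it. CTL libraries had 0.262, 0.274 and 0.342 CPM with ATRA and 0.377, 0.226 and 0.360 CPM without. No MN1 group stood apart from all others. The ATRA change was log2 0.83 ± 0.44 in MN1 KO cells (adjusted p = 0.201) and -0.15 ± 0.39 in MN1 CTL cells (adjusted p = 0.839). The knockout difference was log2 -0.70 ± 0.44 without ATRA (adjusted p = 0.188) and 0.29 ± 0.39 with it (adjusted p = 0.559). The ATRA effect was lower in MN1 than in H9M by log2 -5.72 ± 0.67 in KO cells and -6.43 ± 0.56 in CTL cells, both called. Both calls were in part fixed by the count filter, as described below. Dhrs3, Cyp26a1 and Cyp26b1, other known retinoic acid targets, were called higher with ATRA in MN1 too, as described below.

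Rarg (RARγ, chromosome 15, 102234938-102257522) is a receptor with a known part in blood stem cell renewal in mice. Its H9M levels were 10.5, 9.75 and 10.7 CPM in KO libraries with ATRA and 14.2, 14.2 and 15.1 CPM in KO libraries without it. CTL libraries had 13.3, 12.7 and 13.8 CPM with ATRA and 12.8, 13.7 and 13.1 CPM without. The KO group with ATRA lay below the other 3 groups, and the 2 CTL groups overlapped. ATRA lowered Rarg in KO cells (log2 -0.46 ± 0.07, adjusted p = 7.02e-06), and the change in CTL cells was log2 0.04 ± 0.07 (adjusted p = 0.742). The knockout lowered Rarg with ATRA present (log2 -0.36 ± 0.07, adjusted p = 1.39e-04), and without ATRA the difference was log2 0.15 ± 0.07 (adjusted p = 0.0736, and 0.0436 with RLE scaling). The difference between the ATRA effects, the knockout by ATRA interaction, was log2 -0.51 ± 0.10 (adjusted p = 0.00131). It was the sole call among the 7 tested genes in that comparison, in which 5.04% of all genes were called.

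In MN1, Rarg measured 32.2, 31.7 and 30.4 CPM in KO libraries with ATRA and 26.3, 25.5 and 27.2 CPM in KO libraries without it. CTL libraries had 28.0, 23.8 and 26.4 CPM with ATRA and 21.1, 21.3 and 19.5 CPM without. The KO group with ATRA was the highest and the untreated CTL group the lowest, with KO without ATRA and CTL with ATRA overlapping. ATRA raised Rarg in KO cells (log2 0.21 ± 0.06, adjusted p = 0.00789) and in CTL cells (log2 0.32 ± 0.06, adjusted p = 1.68e-04). The call in KO cells was lost when KO replicate 2 was left out (adjusted p = 0.0513). The knockout raised Rarg in MN1 without ATRA (log2 0.35 ± 0.06, adjusted p = 1e-05) and with it (log2 0.24 ± 0.06, adjusted p = 4.55e-04). The difference between models in the knockout effect was tested without ATRA only, and was log2 0.20 ± 0.09 (adjusted p = 0.107). The ATRA effect in KO cells was higher in MN1 than in H9M by log2 0.68 ± 0.09, and that in CTL cells by log2 0.27 ± 0.09 (adjusted p = 0.0426). That call in CTL cells was lost under DESeq2 (adjusted p = 0.0725), with RLE scaling (0.0559) and with no filter (0.0984). It was also lost in 8 of 12 fits that left out 1 library (log2 0.21 to 0.34, adjusted p up to 0.142), and was kept without H9M CTL + ATRA replicate 3, H9M CTL replicate 1, MN1 CTL + ATRA replicate 2 or MN1 CTL replicate 2.

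Rxra (RXRα, chromosome 2, 27676445-27763319), like the other RXRs, pairs with RARs and with many other receptors. Its H9M levels were 16.7, 17.9 and 17.8 CPM in KO libraries with ATRA and 22.5, 23.1 and 24.6 CPM in KO libraries without it. CTL libraries had 19.8, 19.8 and 19.2 CPM with ATRA and 26.2, 28.2 and 26.5 CPM without. The ATRA groups lay below the groups without it, and no pair of groups overlapped. ATRA lowered Rxra in KO cells (log2 -0.39 ± 0.09, adjusted p = 8.09e-04) and in CTL cells (log2 -0.43 ± 0.09, adjusted p = 3.31e-04). The knockout difference without ATRA was log2 -0.19 ± 0.08 (adjusted p = 0.059), and DESeq2 called it (adjusted p = 0.0482). With ATRA it was log2 -0.16 ± 0.09 (adjusted p = 0.143), and the fit of the H9M libraries alone called both (adjusted p = 0.00884 without ATRA and 0.0417 with it).

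In MN1 every library had under 1 CPM of Rxra. KO libraries had 0.273, 0.602 and 0.918 CPM with ATRA and 0.610, 0.481 and 0.617 CPM without, and CTL libraries had 0.0982, 0.205 and 0.266 CPM with ATRA and 0.377, 0.0969 and 0.393 CPM without. KO libraries were above CTL libraries at the same ATRA state. Between untreated controls, MN1 was lower than H9M by log2 -6.63 ± 0.17 (99.2-fold, adjusted p = 5.04e-25). The models also differ in mast cell and basophil markers. The 5 listed summed to 1042 to 1110 CPM in untreated MN1 controls and to 17.3 to 18.7 CPM in untreated H9M controls. Cpa3 made up most of the MN1 sum, as Ms4a2, the next highest, averaged at most 112 CPM in any group. Of the 4 tested, 3 were called higher and 1 lower in MN1 (37.6% and 35.9% of all genes). The part of these markers in the differences between models was not tested. The knockout raised the low MN1 level 1.99-fold without ATRA (adjusted p = 0.0317) and 3.24-fold with it (adjusted p = 8.33e-04). These rest on 44 counts in KO and 25 in CTL without ATRA, and on 52 in KO and 16 in CTL with it. The call without ATRA was lost when KO replicate 1, KO replicate 3 or CTL replicate 2 was left out (log2 0.55 to 1.31 over the 6 fits, adjusted p up to 0.231), and in the fit of the MN1 libraries alone (adjusted p = 0.0687). The ATRA change of Rxra in MN1 was log2 0.09 ± 0.33 in KO cells and -0.62 ± 0.49 in CTL cells, neither called. The same 3 libraries each decided the call that the knockout effect was higher in MN1 than in H9M (log2 1.18 ± 0.40, adjusted p = 0.0251, and log2 0.74 to 1.501 with adjusted p up to 0.162 when 1 library was left out).

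Rxrb (RXRβ, chromosome 17, 34031812-34038403) is the RXR found in most tissues. H9M KO libraries had 89.8, 80.9 and 88.1 CPM with ATRA and 97.4, 91.5 and 98.5 CPM without it. CTL libraries had 101, 102 and 103 CPM with ATRA and 108, 110 and 110 CPM without. All 6 H9M KO libraries were below all 6 H9M CTL libraries. In MN1, KO libraries had 87.4, 86.6 and 90.8 CPM with ATRA and 83.1, 80.5 and 83.4 CPM without. MN1 CTL libraries had 95.4, 96.8 and 97.0 CPM with ATRA and 90.7, 95.9 and 92.2 CPM without. MN1 KO libraries were below MN1 CTL libraries at the same ATRA state. The knockout lowered Rxrb in H9M by log2 -0.17 ± 0.04 without ATRA (adjusted p = 2.02e-04) and -0.24 ± 0.04 with it. In MN1 it did so by log2 -0.18 ± 0.04 without ATRA and -0.15 ± 0.04 with it. ATRA lowered it slightly in H9M KO cells (log2 -0.13 ± 0.04, adjusted p = 0.0103), and this ATRA effect was higher in MN1 by log2 0.19 ± 0.05 (adjusted p = 0.0163). The first of these calls was lost without H9M KO + ATRA replicate 2, H9M KO replicate 1 or H9M KO replicate 3 (adjusted p up to 0.109). The other was lost without H9M KO + ATRA replicate 2, MN1 KO + ATRA replicate 3 or MN1 KO replicate 2 (adjusted p up to 0.0667), and with no filter (0.0566). ATRA changed Rxrb by log2 -0.06 ± 0.04 in H9M CTL, 0.06 ± 0.04 in MN1 KO and 0.03 ± 0.04 in MN1 CTL cells, none called. Rxrg (chromosome 1, 167598362-167639623), the RXR best known from muscle and brain, had 0 counts in all 24 libraries, which allows up to 0.00471 CPM over them (3 counts, counting error only).

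Ncor1 (chromosome 11, 62315663-62457414) encodes the corepressor that joins unliganded receptors to the histone deacetylase HDAC3. Its H9M levels were 325, 388 and 343 CPM in KO libraries with ATRA and 322, 337 and 315 CPM in KO libraries without it. CTL libraries had 379, 400 and 403 CPM with ATRA and 380, 370 and 404 CPM without. In MN1, KO libraries had 336, 321 and 304 CPM with ATRA and 301, 278 and 272 CPM without, against 343, 340 and 328 CPM in CTL libraries with ATRA and 273, 306 and 313 CPM in CTL libraries without. Groups next to each other in level overlapped in both models. The knockout lowered Ncor1 in H9M without ATRA (log2 -0.23 ± 0.05, adjusted p = 6.09e-04) and with it (log2 -0.16 ± 0.05, adjusted p = 0.0136), the second call being lost without KO + ATRA replicate 1 or 3 (log2 -0.24 to -0.10 when 1 library was left out, adjusted p up to 0.129). In MN1 the knockout difference was log2 -0.07 ± 0.05 without ATRA and -0.10 ± 0.05 with it, neither called. The ATRA difference was log2 0.07 ± 0.05 in H9M CTL and 0.13 ± 0.05 in MN1 KO cells, neither called. ATRA was called to raise it in H9M KO cells (log2 0.14 ± 0.05, adjusted p = 0.0487) and in MN1 CTL cells (log2 0.16 ± 0.05, adjusted p = 0.0363). The call in H9M was lost without KO + ATRA replicate 2 or 3 or KO replicate 1 or 3 (log2 as low as 0.0594, adjusted p up to 0.465) and with library totals alone (adjusted p = 0.101), and that in MN1 without CTL + ATRA replicate 1 or 2 or CTL replicate 1 (log2 as low as 0.11, adjusted p up to 0.215). Ttc19, which overlaps Ncor1, averaged 10.8 to 21.2 CPM in the 8 groups.

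Nrip1 (chromosome 16, 76287403-76373827) encodes the corepressor of liganded receptors, and is induced by retinoic acid in other cells. In H9M it measured 22.9, 21.4 and 21.3 CPM in KO libraries with ATRA and 0.0893, 0.0399 and 0.146 CPM in KO libraries without it. CTL libraries had 3.89, 4.20 and 3.04 CPM with ATRA and 0.0385, 0.106 and 0.0392 CPM without. Libraries without ATRA held 1 to 4 counts each, CTL libraries with ATRA were all above them, and KO libraries with ATRA were all above those. Summed over libraries, Nrip1 was 233 times as high with ATRA as without in KO cells (95% counting interval 113 to 581) and 59.3 times in CTL cells (25.1 to 184). The fitted log2 change in CTL cells was 5.83 ± 0.33, and 6.46 without CTL replicate 2. Without ATRA the knockout difference was log2 0.56 ± 0.81 (adjusted p = 0.607). With ATRA present, KO cells had 5.87-fold the CTL level (log2 2.55 ± 0.10, adjusted p = 3.94e-19). The interaction itself was log2 2.00 ± 0.95 and did not pass the test (adjusted p = 0.305), with 7 counts in untreated KO and 5 in untreated CTL cells.

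In MN1, Nrip1 measured 30.5, 29.0 and 26.3 CPM in KO libraries with ATRA and 25.4, 24.9 and 21.4 CPM in KO libraries without it. CTL libraries had 19.6, 23.3 and 20.3 CPM with ATRA and 17.2, 16.7 and 16.9 CPM without. The KO group with ATRA was the highest and the untreated CTL group the lowest, with no overlap between either and the rest. Between untreated controls, MN1 was 269 times as high as H9M by summed counts (95% counting interval 115 to 830), and the fitted log2 difference was 7.88 ± 0.22, or 8.52 without H9M CTL replicate 2. The knockout raised Nrip1 1.41-fold without ATRA (adjusted p = 2.67e-06) and 1.33-fold with it. ATRA raised it 1.16-fold in MN1 KO cells (adjusted p = 0.0405) and 1.23-fold in MN1 CTL cells (adjusted p = 0.006). The call in KO cells was lost without KO + ATRA replicate 1 or 2 or KO replicate 2 or 3 (log2 as low as 0.14, adjusted p up to 0.264), and that in CTL cells without CTL + ATRA replicate 2 (adjusted p = 0.0688). The ATRA effect was lower in MN1 than in H9M by log2 -7.61 ± 0.24 in KO cells and -5.53 ± 0.36 in CTL cells, or -6.17 in CTL cells without H9M CTL replicate 2.

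**Figure D2:**
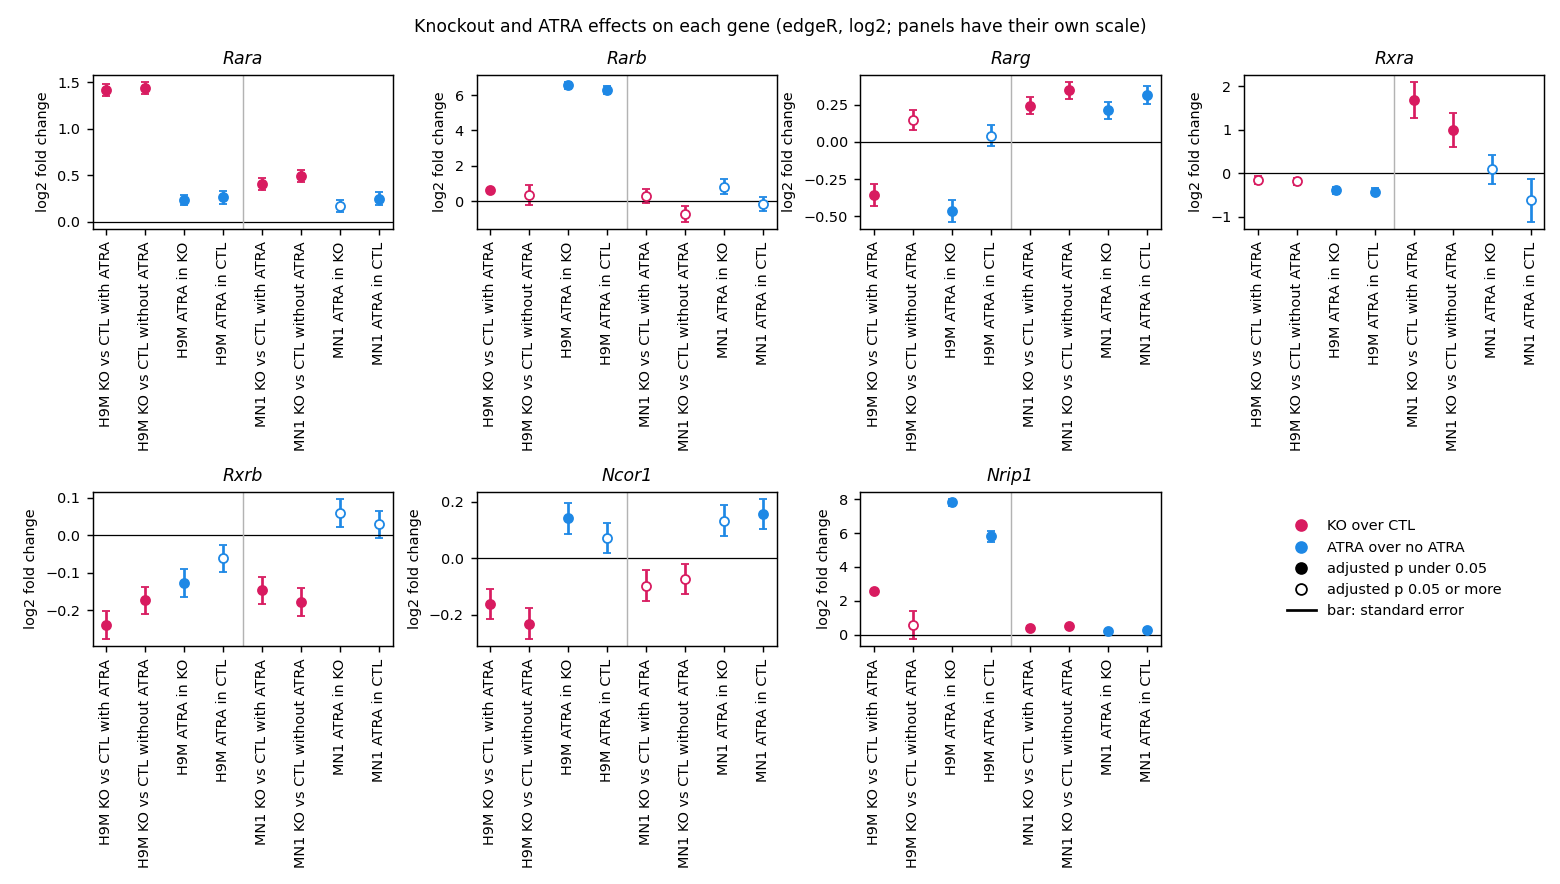
Log2 fold changes (edgeR) of the 7 tested genes for KO over CTL and for ATRA over no ATRA in each model. Bars are approximate standard errors, which are too small for large changes against few counts. Filled points have an adjusted p under 0.05 and each panel has its own scale. Rara is the gene with the largest knockout effect in H9M without ATRA (1.44), and Rarb and Nrip1 in H9M have ATRA effects above 5 on the log2 scale.

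Counted over the 7 tested genes, the knockout in H9M with ATRA called 6, where 51.1% of all genes were called: Rara, Rarb and Nrip1 were higher (26.7% of all genes) and Rarg, Rxrb and Ncor1 lower (24.4%). Without ATRA it called 3 in H9M, where 51.5% of all genes were called: Rara was higher (26.1% of all genes) and Rxrb and Ncor1 lower (25.4%). In MN1 with ATRA it called 5, where 57.2% of all genes were called: Rara, Rarg, Rxra and Nrip1 were higher (28.6% of all genes) and Rxrb lower (28.6%). In MN1 without ATRA it also called 5, where 55.0% of all genes were called: the same 4 were higher (28.7% of all genes) and Rxrb lower (26.3%).

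ATRA called all 7 in H9M KO cells, where 29.4% of all genes were called: Rara, Rarb, Ncor1 and Nrip1 were higher (13.9% of all genes) and Rarg, Rxra and Rxrb lower (15.4%). In H9M CTL cells it called 4, where 25.2% of all genes were called: Rara, Rarb and Nrip1 were higher (12.9% of all genes) and Rxra lower (12.3%). MN1 KO cells had 2 calls with ATRA, where 18.8% of all genes were called: Rarg and Nrip1 were higher (8.42% of all genes) and none was lower (10.4%). MN1 CTL cells had 4 calls, where 21.8% of all genes were called: Rara, Rarg, Ncor1 and Nrip1 were higher (11.4% of all genes) and none was lower (10.4%). The knockout by ATRA interaction in H9M called Rarg alone, as lower (2.79% of all genes were lower and 2.25% higher). None of the 7 was called for the interaction in MN1, where 2.78% of all genes were (1.09% higher, 1.68% lower), and none had an unadjusted p under 0.05 in edgeR. Knockout and ATRA comparisons of a model share libraries, so their counts are not independent. Rarb passed the count filter only through the H9M groups with ATRA, so its ATRA calls in H9M were in part fixed by the filter. The same holds for its calls of a lower ATRA effect in MN1 than in H9M.

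The models differed in the knockout effect without ATRA for 2 of the 7, against 28.4% of all genes: Rxra was higher (14.2% of all genes) and Rara lower (14.2%) in MN1. They differed in the ATRA effect in KO cells for 4, against 13.5% of all genes: Rarg and Rxrb were higher (6.17% of all genes) and Rarb and Nrip1 lower (7.31%). In CTL cells they differed for 3, against 13.8% of all genes: Rarg was higher (6.64% of all genes) and Rarb and Nrip1 lower (7.15%). The Rarb call in both was in part fixed by the count filter, so the 4 and 3 cannot be weighed against those shares. Untreated MN1 controls differed from H9M controls in 6 of the 7, against 73.5% of all genes: Rarb, Rarg and Nrip1 were higher (37.6% of all genes) and Rxra, Rxrb and Ncor1 lower (35.9%). Of these, Rarg was higher by log2 0.55 ± 0.06 in MN1, Rarb by 1.09 ± 0.48 (adjusted p = 0.0421, lost without H9M CTL replicate 1 or 3 or MN1 CTL replicate 1 or 3, adjusted p up to 0.159, and with no filter, 0.0733), Rxrb was lower by log2 -0.32 ± 0.04 and Ncor1 by -0.46 ± 0.05.

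Likeness was taken as Pearson's r of log2 CPM over the 24 libraries of both models together, after removing each model's mean, among genes with a mean of at least 5 CPM, as a description. Rarb and Nrip1 had r 0.95, and both had their large ATRA changes in H9M. In MN1 no knockout or ATRA change of Rarb was called, while all 4 of Nrip1 were. Among the genes past that minimum, the one most like both was Cyp26b1, which breaks down retinoic acid, with r 0.96 to Rarb and 0.96 to Nrip1. Rara was most like Gbp3 (r 0.98), Psap (0.98) and Zfp467 (0.98), and moved opposite to Rxrb (r -0.84). Rarg was most like Cbfa2t3 (r 0.85), Rxra most like Lipg (0.84), Rxrb most like Rassf7 (0.95) and Ncor1 most like Chd6 (0.92). These libraries share their groups, so genes that respond to the same conditions correlate.

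Among the 10 other genes of corepressor complexes, most were called lower in KO cells. The knockout without ATRA called 7 lower and 1 higher in H9M, where 25.4% of all genes were called lower and 26.1% higher, with a list median of log2 -0.15 against 0 over all genes. In MN1 it called 6 lower and 1 higher, where 26.3% of all genes were called lower and 28.7% higher, with a median of -0.13 against 0.01. Sin3a, a scaffold for histone deacetylases, fell in H9M (log2 -0.24 ± 0.04) and in MN1 (-0.27 ± 0.04), and Gps2, a subunit of the NCOR complex, fell in both (-0.32 ± 0.06 in each). Tbl1x, another subunit, rose in H9M (0.40 ± 0.04), and its knockout effect was lower in MN1 by log2 -0.55 ± 0.05. ATRA called 1 of the 10 in H9M CTL cells and 2 in MN1 CTL cells, where 25.2% and 21.8% of all genes were called. Of the 10 coactivators, Ncoa3 was called higher with ATRA in all 4 comparisons, by log2 0.70 in H9M KO, 0.55 in H9M CTL, 0.57 in MN1 KO and 0.54 in MN1 CTL cells. The list as a whole had 4 higher and none lower with ATRA in H9M KO cells, where 29.4% of all genes were called, and 3 higher and 1 lower in H9M CTL cells, where 25.2% were. In each MN1 state it had 2 higher and none lower, where 18.8% of all genes were called in KO and 21.8% in CTL cells. The MN1 counts of the list are thus near the share of all genes.

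Of 13 other receptors that pair with RXRs, 9 were tested, and the knockout without ATRA called 4 higher and 1 lower in each model. Of all genes, 51.5% were called in H9M and 55.0% in MN1, so the 5 calls among 9 are near the share of all genes. Pparg averaged 14.1 ± 0.31 CPM in H9M KO cells and 0.769 ± 0.11 CPM in H9M CTL cells (SD, n = 3 each), a rise of log2 4.21 ± 0.16. Ppard rose by log2 0.82 ± 0.05 in H9M and 0.67 ± 0.05 in MN1. Vdr, the vitamin D receptor, rose by log2 2.10 ± 0.11 in H9M and 1.38 ± 0.13 in MN1, and its knockout effect was lower in MN1 by log2 -0.72 ± 0.18 (adjusted p = 2.55e-03).

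Several genes that make, bind or degrade retinoic acid rose with ATRA in both models. Of 15 listed genes, 9 were tested, and ATRA called 5 higher and 2 lower in H9M KO cells, 6 higher and none lower in H9M CTL cells, and 5 higher and 2 lower in each MN1 state. Of all genes, ATRA called 29.4% in H9M KO, 25.2% in H9M CTL, 18.8% in MN1 KO and 21.8% in MN1 CTL cells. Cyp26a1, which degrades retinoic acid, averaged 30.3 ± 2.7 CPM in H9M KO and 14.6 ± 1.9 CPM in H9M CTL cells with ATRA, and 8.62 ± 0.74 CPM in MN1 KO and 1.84 ± 0.60 CPM in MN1 CTL cells with ATRA. Without ATRA it averaged 0.0393 CPM in H9M KO cells and had no count in the other 3 groups. Dhrs3, which turns retinal back to retinol, rose with ATRA by log2 2.03 ± 0.04 in H9M KO, 1.83 ± 0.04 in H9M CTL, 1.56 ± 0.04 in MN1 KO and 0.70 ± 0.04 in MN1 CTL cells. Its ATRA effect in CTL cells was lower in MN1 than in H9M by log2 -1.14 ± 0.06. Cyp26b1 averaged 31.8 ± 5.8 CPM in H9M KO and 7.996 ± 1.2 CPM in H9M CTL cells with ATRA, and 5.79 ± 0.21 CPM in MN1 KO and 2.53 ± 0.34 CPM in MN1 CTL cells with ATRA. Of 10 listed direct targets of retinoic acid, 8 were tested and 6 were called higher with ATRA in each of the 4 comparisons, and 2 were called lower in H9M CTL cells. Cyp26a1, Cyp26b1 and Dhrs3 are on this list and on the one before, so the counts are not independent. Cyp26a1 passed the count filter only through groups with ATRA, so neither count can be weighed against the shares of all genes. Of the 31 genes with a DR5 in a promoter window, 6 were tested, and ATRA called 3 higher in H9M KO cells, 3 in H9M CTL cells, 3 in MN1 KO cells and 4 in MN1 CTL cells, where 13.9%, 12.9%, 8.42% and 11.4% of all genes were called higher. It called Blvrb lower in H9M KO cells and Tnfsf13b lower in MN1 KO cells, where 15.4% and 10.4% of all genes were. Rarb was among those called in H9M and not in MN1, and Cyp26a1 in all 4. Both passed the count filter only through groups with ATRA, so the DR5 counts cannot be weighed against those shares.

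H3K4me2 at the starts of the 8 genes was compared between GFI1-KD and GFI1-WT bone marrow, GFI1 being a repressor that recruits LSD1. There is 1 library each, so intervals cover counting error only and no test was made. Reads within 1 kb of the start were scaled to a total of 1000000 (RPM), of 9538627 kept reads in GFI1-KD and 8949072 in GFI1-WT, and per gene the start with most reads was used. Rara had 46.7 RPM in GFI1-KD and 37.7 in GFI1-WT, a ratio of 1.24 (95% interval 1.07 to 1.43). Rarg had 44.3 in GFI1-KD and 35.9 in GFI1-WT, also a ratio of 1.24 (1.07 to 1.43). Rarb had 11.7 in GFI1-KD and 13.3 in GFI1-WT (ratio 0.883, interval 0.676 to 1.15). The intervals of Rxra (1.04), Rxrb (0.896), Ncor1 (0.925) and Nrip1 (0.938) also included 1. Rxrg had 16 reads in GFI1-KD and 44 in GFI1-WT, a ratio of 0.341 (0.180 to 0.617). Its 1.68 and 4.92 RPM are low, near the medians over all genes of 2.83 in GFI1-KD and 2.79 in GFI1-WT. Over the 15171 genes with at least 20 reads, the median ratio was 0.988 and the 5th to 95th percentiles ran from 0.586 to 2.11, so all but Rxrg lay inside the range of most genes at these starts.

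**Figure D3:**
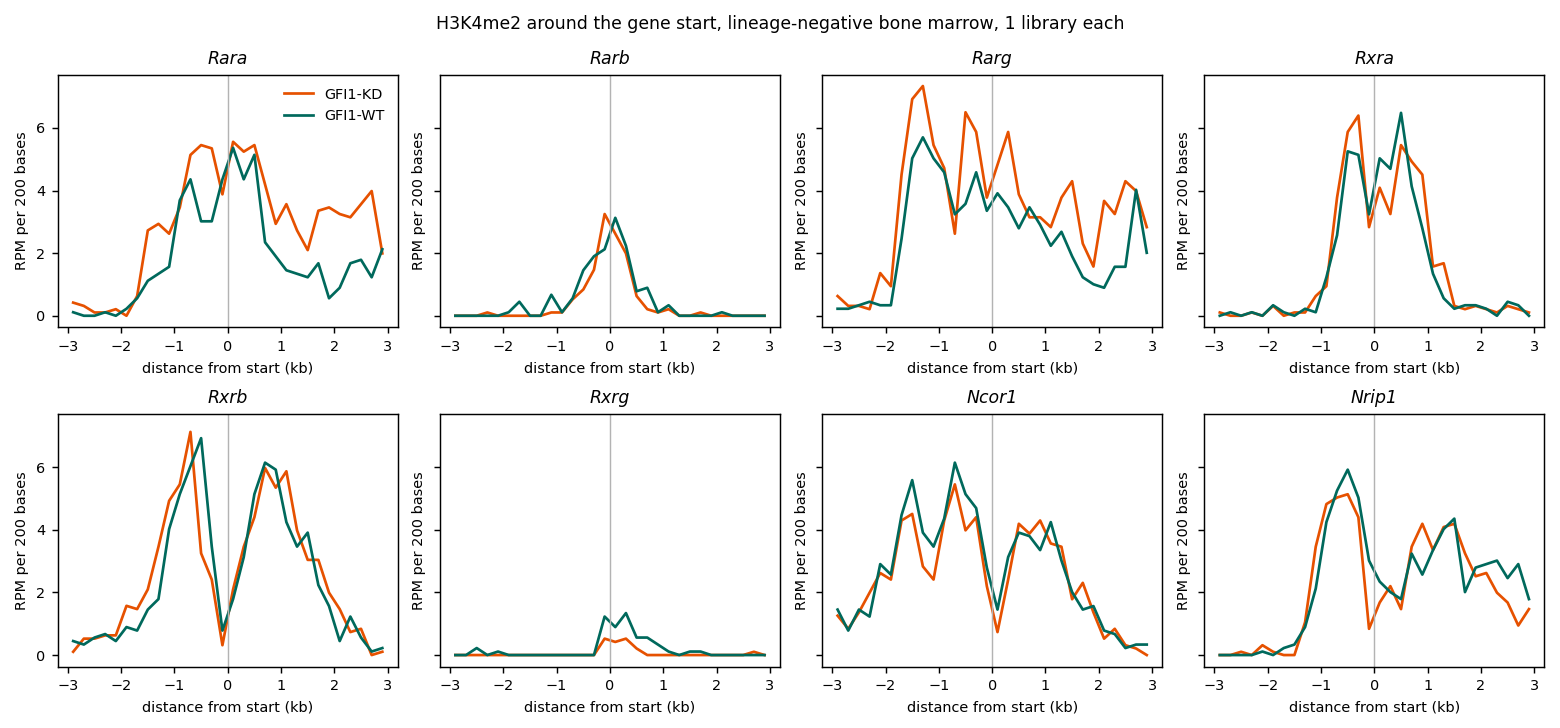
H3K4me2 RPM in 200-base steps by distance from the start (kb) of each gene, in 1 GFI1-KD and 1 GFI1-WT library. The Rarb peak is narrow and low beside most others, and Rxrg has 16 reads in GFI1-KD and 44 in GFI1-WT.

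Rara has 4 starts among the windows used here, and the ratio was larger at the 2 downstream ones. The start at 98939711 had 31.2 RPM in GFI1-KD and 13.97 in GFI1-WT, a ratio of 2.24 (95% interval 1.81 to 2.78), higher than at 95.6% of the 18346 starts with at least 20 reads. The start at 98964872 had 13.4 in GFI1-KD and 7.15 in GFI1-WT, a ratio of 1.88 (1.38 to 2.57), higher than at 92.7% of starts. The windows of the starts at 98937696 and 98937718 overlap almost wholly. The window of the start at 98939711 shares only a few bases with the one at 98937718. The RefSeq gene begins further upstream, at 98927800, where no window was counted. These starts were looked at after the values were seen.

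**Figure D4:**
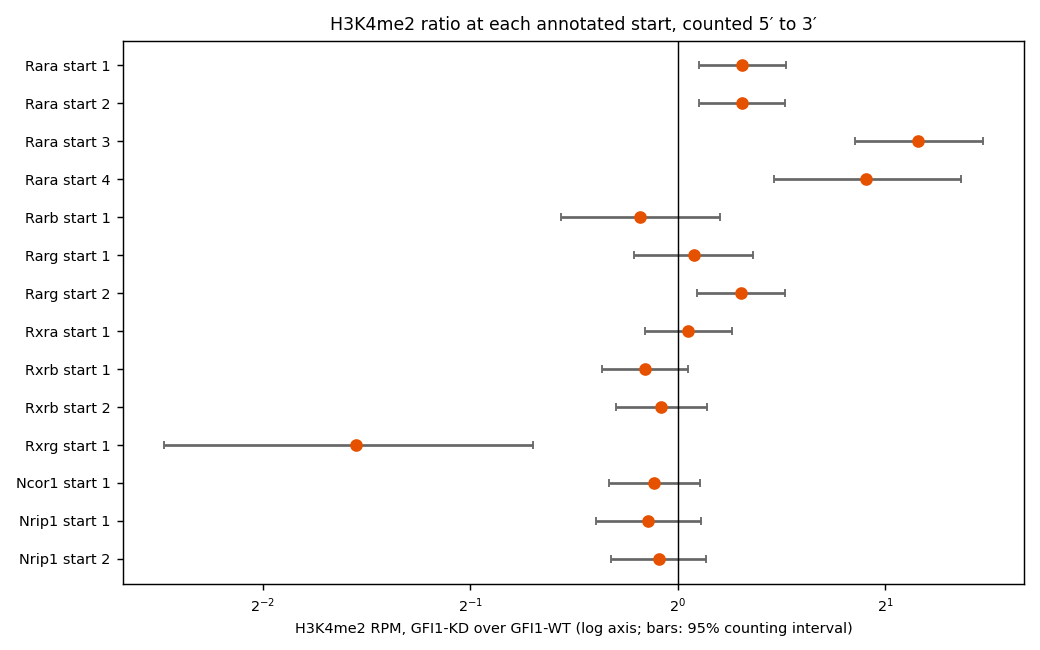
H3K4me2 ratio of GFI1-KD over GFI1-WT RPM (log axis) at each start used here with at least 20 reads, with 95% counting intervals. Starts are numbered 5′ to 3′ among those used. The 2 downstream Rara starts have ratios of 2.24 and 1.88, and the Rxrg start has 0.341, at only 16 and 44 reads.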

How the data were processed

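RNA was measured in 24 libraries and H3K4me2 in 2. The deposited RNA table holds raw counts per gene and library. The submitters' processing notes name mm10 and STAR 2.5.3 for RNA, and CASAVA 1.8.2, BWA and bedtools 2.27.0 for ChIP. The sources used here do not give the counting tool or annotation. The deposited ChIP tables hold 1 read per line with a mapping quality score, of which those scoring 10 or more entered, once for each position and strand.

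Symbols were matched by Ensembl ID without version (48349 matched, 446 did not). Counts were filtered (filterByExpr, minimum count 10) and scaled by TMM in edgeR 4.0.16 (R 4.3.3), with 1 quasi-likelihood fit for all 8 groups (residual df 16) and 14 two-sided comparisons. Groups came from the labels. DESeq2 1.42.0, RLE scaling, no filter, fits within a model, a replicate block and leaving out each library were the alternatives, and library totals and removal of residual control RNA were added after the data were seen. The edgeR step was tested on simulated data. Same-numbered libraries did not vary together (no correlation over 0.0773 in size). The members, lists and alternatives were chosen with earlier results of these data known. The members called are named in each comparison, and effects not called are given in part. Further named genes are, per list, among the called genes with the smallest adjusted p, and per member the genes with the highest correlation at a mean of 5 CPM or more. Blvrb and Tnfsf13b were named after their values were seen. Counting intervals are exact binomial (95%, scipy 1.17.1) and cover counting error alone, as PCR copies carry no molecular identifiers here.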

Additional observations from a re-analysis of the deposited data

Results flagged for a closer look

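The genes below were singled out because an effect differed between groups by a test of the difference itself, in edgeR's quasi-likelihood fit. The ATRA effect on Rarg was lower in H9M KO than in H9M CTL cells (log2 -0.51). The knockout effect in MN1 against H9M was lower for Rara (log2 -0.95) and higher for Rxra (log2 1.18, at under 1 CPM in MN1).

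The ATRA effect in CTL cells of MN1 against H9M was lower for Rarb (log2 -6.43) and Nrip1 (log2 -5.53, and -6.17 without H9M CTL replicate 2) and higher for Rarg (log2 0.27). In KO cells it was lower for Rarb (log2 -5.72) and Nrip1 (log2 -7.61), and higher for Rarg (log2 0.68) and Rxrb (log2 0.19). The Rarb differences were in part fixed by the count filter, which Rarb passed only through the H9M groups with ATRA. Nrip1 was already at 17.2, 16.7 and 16.9 CPM in untreated MN1 controls, against 0.0385, 0.106 and 0.0392 CPM in untreated H9M controls. Model and whatever the library codes mark cannot be told apart in these comparisons.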

How the results depend on the processing

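Counts of called genes over all genes stayed within 1.5 times under each alternative run. Of 98 values of the 7 genes, 95 kept direction and call with RLE scaling, 94 with DESeq2, 90 with no filter and 91 with library totals alone, and 721 of 798 did when 1 library was left out. Same-numbered libraries did not vary together, so they are not treated as pairs: with a replicate block 97 of 98 values kept their call, and Ncor1 with ATRA in H9M KO cells lost it (log2 0.14, adjusted p = 0.0509). Signs turned for values that were not called. Ncor1 in the MN1 minus H9M ATRA effect in KO cells (-0.01) was 0.0060 with RLE, 0.0063 with DESeq2 and 0.0575 with library totals, which also gave 0.0144 for Rxrb in the knockout effect and 0.0477 for Rara in the ATRA effect in CTL cells of MN1 minus H9M. Removing residual control RNA gave 0.0422 for Rara in the H9M interaction. The median log2 H3K4me2 ratio of the 8 genes was -0.10, and 0.0215 with windows of 2 kb. Leaving out 1 library turned the sign of these log2 values, given as lowest and highest. For the H9M interaction they were -0.0117 and 0.13 for Ncor1, -0.0559 and 0.0087 for Rara, -0.26 and 0.65 for Rarb, and -0.0027 and 0.0647 for Rxra. For the MN1 interaction they were -0.0607 and 0.0411 for Ncor1 and -0.14 and 0.0227 for Rara. For the H9M knockout without ATRA they were -0.0370 and 0.87 for Rarb, and for ATRA in MN1 KO cells -0.43 and 0.41 for Rxra. For MN1 minus H9M they were -0.69 and 0.47 for Nrip1 and -0.0361 and 0.0135 for Rxrb in the knockout effect, -0.12 and 0.0490 for Rara and -0.64 and 0.13 for Rxra in the ATRA effect in CTL cells, and -0.0658 and 0.0743 for Ncor1 and -0.0359 and 0.81 for Rxra in the ATRA effect in KO cells. Among calls, RLE gained Rarg in the H9M knockout without ATRA (adjusted p = 0.0436), and DESeq2 gained Rxra there (0.0482) and Rara with ATRA in MN1 KO cells (0.0493). Rarg in the MN1 minus H9M ATRA effect in CTL cells was lost with RLE (0.0559), DESeq2 (0.0725) and no filter (0.0984). No filter also lost Rxrb in the MN1 minus H9M ATRA effect in KO cells (0.0566) and Rarb in MN1 against H9M controls (0.0733). It gained Rxra in the H9M knockout without ATRA, Rara and Ncor1 with ATRA in MN1 KO cells, and Ncor1 in the MN1 knockout with ATRA and in the MN1 minus H9M knockout effect (0.00793 to 0.0498). Ncor1 with ATRA in H9M KO cells was lost with library totals (0.101) and with residual control RNA removed (0.0713). Library totals gained Rxra in the H9M knockout without ATRA and Rara and Ncor1 with ATRA in MN1 KO cells (0.0224 to 0.042). Fits within a model, where 61 of 65 values kept their call, lost Rxra in the MN1 knockout without ATRA (0.0687). They gained Rxra in both H9M knockout effects and Ncor1 with ATRA in MN1 KO cells (0.00884 to 0.0417). The cause of these changes was not tested. Rarb, Nrip1 and Rxra have few counts in the groups under 1 CPM, which limits every fold taken against them.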
